A study of Schmidtea mediterranea with 12 samples.

Results

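Cytochrome P450s are haem-containing monooxygenases that insert oxygen into fatty acids, steroids and foreign compounds, receiving their electrons from NADPH through a reductase that all microsomal P450s share. In vertebrates the CYP2 and CYP3 families are most abundant in the liver and the small intestine, where they begin the breakdown of absorbed compounds that conjugating enzymes and efflux pumps then carry out of the cell. Planarians have no separate liver, and their branched, blind-ending gut both digests food and distributes it.

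Expression of 3 P450 transcripts of the planarian *Schmidtea mediterranea*, chosen by name, was examined out of 28069 transcripts in the count table, of which 13136 were abundant enough to be tested. They are cyp2b19 (dd_Smed_v6_2351_0_1, 2759 bases), cyp2a6 (dd_Smed_v6_4449_0_1, 1730 bases) and a transcript that best matches human CYP3A4 (dd_Smed_v6_2257_0_1, 2300 bases). The names are those of the closest vertebrate sequences and do not establish what the planarian enzymes act on. Mouse CYP2B19 is an arachidonic acid epoxygenase of the skin, human CYP2A6 oxidises nicotine and coumarin, and human CYP3A4 oxidises many drugs and steroids. The transcripts belong to a de novo transcriptome, so they carry no genome coordinates. All 3 had been picked from the study's table of intestine-enriched transcripts, which was made from these same libraries, so their comparison with non-intestine tissue describes them and is not independent evidence of enrichment.

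The tissue came from 4 uninjured, asexual animals of the clonal line CIW4, 6 to 9 mm long and starved for 7 days, whose age is not given in the sources used here. From eosin-stained sections of the region in front of the pharynx, medial intestine, lateral intestine and the remaining non-intestine tissue were laser-captured by their morphology, and each animal gave 1 library per tissue, for 12 libraries and n = 4 per tissue. Libraries with the same replicate number were taken to come from the same animal. All animals share the genotype and the fasting, and non-intestine tissue is a mixture of every other cell type in the sections, which limits it as a reference. In bulk tissue of this kind, fewer cells that express a transcript and less RNA per cell cannot be told apart.

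Library totals lay between 20227187 and 33296270 counts. A single intestinal transcript, dd_1, took 11.5% to 17.4% of the counts in the intestine libraries and 0.16% to 0.47% in the non-intestine libraries, and trimmed mean of M-values (TMM) factors lay at 0.765 to 0.985 in the former and at 1.21 or above in the latter, so the scaling of libraries bears on every fold below. The labels were checked against marker lists, in CPM (counts scaled to the TMM-adjusted library size). The 5 intestine markers summed to 5007 to 7807 CPM in medial and 5110 to 6052 CPM in lateral intestine against 132 to 148 CPM outside it, and all 5 were called higher in both intestinal tissues. Of these 5, 4 are in the study's tables of intestine-enriched transcripts made from these libraries, so their calls are not an independent check of the labels. Over all transcripts 12.1% were called higher in medial and 11.3% in lateral intestine, and 9.49% and 7.58% were called lower. The 4 neuronal markers summed to at most 13.3 CPM in intestine against 51.9 to 71.0 outside it, nearly all of it PCSK2, the 1 of 3 tested that was called lower in both. SLC18A3 and RIMS1 had 0 counts in all medial libraries, while GAD1 overlapped between the tissues. The 3 cilia markers summed to at most 8.73 CPM against 15.9 to 24.1 with none of them called, and the 2 markers of dividing and stem cells to 110 to 225 CPM against 262 to 327, of which 2 were called lower in medial and 1 in lateral intestine. The 2 muscle markers overlapped, at 126 to 344 CPM in intestine and 217 to 395 outside it, and neither passed the test in either comparison. The part of these other cells in the P450 values was not tested.

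All 3 P450 transcripts were detected in every library and were several-fold higher in medial and in lateral intestine than in non-intestine tissue, while no difference between the 2 regions of the intestine was detected. In non-intestine tissue they were low but not absent, with 67 to 466 reads per library. The largest difference was that of cyp2a6, 14.3-fold in medial and 15.7-fold in lateral intestine, and the smallest that of cyp2b19, 5.08-fold and 5.10-fold.

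For cyp2b19, medial intestine of animals 1 to 4 gave 41.7, 27.3, 35.7 and 34.9 CPM. Lateral intestine gave 24.1, 33.5, 37.9 and 42.5 CPM, and non-intestine tissue 9.49, 7.21, 6.94 and 3.94 CPM. The lowest intestine library, the lateral one of animal 1, thus stood above the highest non-intestine library, from the same animal. Group means were 34.9 ± 5.92 CPM for medial and 34.5 ± 7.84 CPM for lateral intestine, and 6.90 ± 2.28 CPM for non-intestine tissue (SD, n = 4).

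For cyp2a6, the same animals gave 78.5, 45.0, 60.3 and 63.8 CPM in medial intestine. In lateral intestine the values were 43.9, 76.3, 106.2 and 52.7 CPM, the highest in animal 3, and in non-intestine tissue 5.88, 4.75, 5.08 and 2.26 CPM. Of the 3 transcripts this one varied most between animals in lateral intestine, with a coefficient of variation of 40.0%, against 22.7% for cyp2b19 and 19.7% for the CYP3A4 match. Means were 61.9 ± 13.8, 69.8 ± 27.9 and 4.49 ± 1.56 CPM (SD, n = 4), and the intestine and non-intestine libraries were far apart.

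The CYP3A4 match had 105.5, 48.4, 97.8 and 102.0 CPM in medial intestine of animals 1 to 4. Lateral intestine gave 94.7, 67.5, 94.5 and 66.7 CPM and non-intestine tissue 11.6, 11.2, 11.8 and 5.59 CPM. Animal 2 was low in medial intestine and animal 4 low outside the intestine, where the other 3 animals were nearly equal. Means were 88.4 ± 26.8, 80.9 ± 15.9 and 10.0 ± 2.98 CPM (SD, n = 4), with no overlap between intestine and non-intestine.

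**Figure D1:**
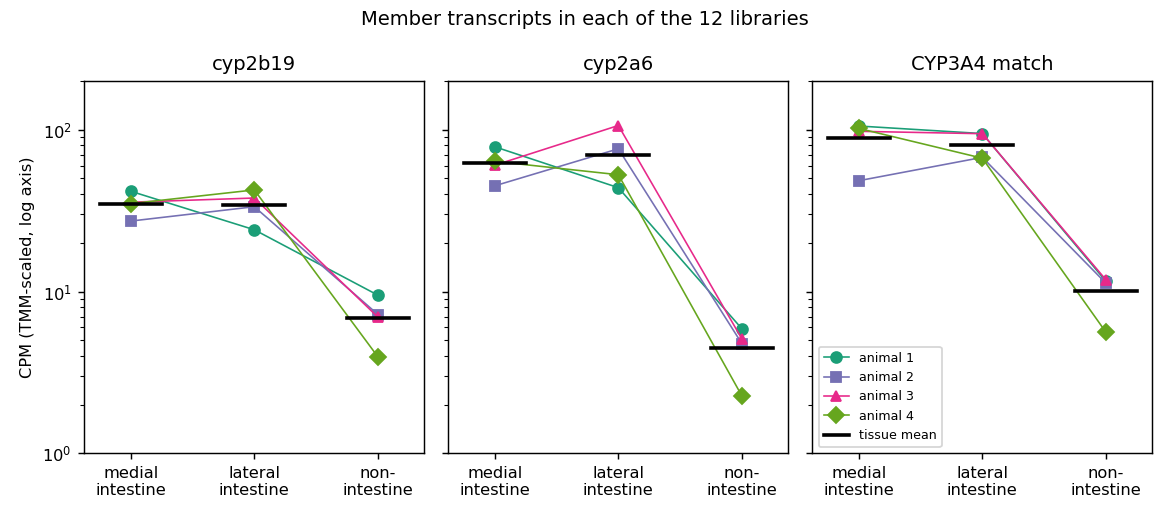
CPM (TMM-scaled, log axis) of cyp2b19, cyp2a6 and the CYP3A4 match in the 12 libraries, by tissue on the horizontal axis, with 1 symbol per animal joined by lines and black bars for the tissue means (n = 4). Every intestine library lies above every non-intestine library for all 3 transcripts, and animal 4 has the lowest non-intestine value in each panel (3.94, 2.26 and 5.59 CPM).

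All 3 transcripts were called higher in both comparisons (edgeR quasi-likelihood test with animal as a block, Benjamini-Hochberg adjusted p under 0.01 over all tested transcripts and a fold above 2). Among all 13136 transcripts, 12.1% were called higher in medial intestine and 11.3% in lateral intestine. In 14.9% of all transcripts every intestine library exceeded every non-intestine library, as it did for all 3 P450s. For cyp2b19 the log2 fold change was 2.35 (SE 0.30, adjusted p = 0.00011) in medial and 2.35 (SE 0.30, adjusted p = 0.00013) in lateral intestine, with 95% intervals of the fold of 3.20 to 8.06 and 3.20 to 8.13. For cyp2a6 it was 3.84 (SE 0.34, adjusted p = 6.7e-06) and 3.97 (SE 0.34, adjusted p = 6.3e-06), with fold intervals of 8.51 to 24.2 and 9.26 to 26.5. The CYP3A4 match had 3.13 (SE 0.28, adjusted p = 7.5e-06) and 3.00 (SE 0.28, adjusted p = 1.1e-05), which are 8.77-fold (5.69 to 13.5) and 8.01-fold (5.24 to 12.3). Both comparisons use the same 4 non-intestine libraries and are not independent of each other.

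Within animals, the ratio of intestine to non-intestine CPM was above 1 for each transcript in 4 of 4 animals, and it was largest in animal 4. For cyp2b19, medial intestine exceeded non-intestine tissue 4.39-, 3.78-, 5.14- and 8.86-fold in animals 1 to 4, and lateral intestine 2.54-, 4.64-, 5.45- and 10.8-fold. For cyp2a6 the medial folds were 13.4, 9.47, 11.9 and 28.2 and the lateral folds 7.46, 16.05, 20.9 and 23.4. The CYP3A4 match gave 9.13-, 4.31-, 8.29- and 18.2-fold in medial and 8.20-, 6.01-, 8.01- and 11.9-fold in lateral intestine. Without the non-intestine library of animal 4, the fitted folds in medial and lateral intestine were 4.18 and 4.14 for cyp2b19, 12.0 and 13.3 for cyp2a6, and 7.21 and 6.72 for the CYP3A4 match, all still called.

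The scaling of the libraries set the size of these folds. The median log2 fold change of all transcripts was -0.28 in medial and -0.19 in lateral intestine under TMM, and -0.98 and -0.83 when libraries were scaled by their totals alone, which turned the split of higher to lower calls from 1591 to 1247 into 887 to 2597 in medial intestine and from 1478 to 996 into 861 to 2059 in lateral intestine. With DESeq2's size factors the splits were 1368 to 1440 and 1279 to 1144. Under total scaling the fold of cyp2b19 was 3.07 in medial and 3.23 in lateral intestine, that of cyp2a6 8.73 and 9.93, and that of the CYP3A4 match 5.36 and 5.07, and all 6 remained past the threshold. Relative to the median of all transcripts under TMM, the log2 differences in medial intestine were 2.62 for cyp2b19, 4.12 for cyp2a6 and 3.41 for the CYP3A4 match. Scaling shifts all transcripts of a library together, so these relative values hardly depend on it by construction.

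The comparison of medial with lateral intestine asks whether expression is regionalised along the branches of the gut. None of the 3 transcripts passed the test, at an adjusted p under 0.01 and a fold above 1.5, which 0.152% of all transcripts passed as higher and 0.099% as lower in medial intestine. At an unadjusted p under 0.05 the count was 0 of the 3, against 7.05% of all transcripts, and DESeq2 called none of them. The log2 difference of cyp2b19 was -0.01 (SE 0.29, adjusted p = 1), with a 95% interval from -0.64 to 0.62, and the medial to lateral ratio within animals was 1.73, 0.815, 0.943 and 0.823. For cyp2a6 the difference was -0.13 (SE 0.31, adjusted p = 0.99), with an interval from -0.80 to 0.55, and the ratios ran in opposite directions between animals, at 1.79, 0.590, 0.568 and 1.21. The CYP3A4 match had 0.13 (SE 0.26, adjusted p = 0.99; interval -0.44 to 0.70) and ratios of 1.11, 0.717, 1.03 and 1.53. As folds, the intervals were 0.644 to 1.54, 0.574 to 1.46 and 0.738 to 1.62, so regional differences within these limits are not excluded with 4 animals. The smallest difference that would have been called at an adjusted p under 0.01 was not determined, and it may lie beyond these limits. In animal 1 all 3 ratios were above 1 and in animal 2 all 3 were below it.

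Levels of different transcripts were compared per length, in the deposited TPM, which divides by transcript length and is not TMM-scaled. In the 8 intestine libraries cyp2a6 averaged 28.4 TPM (SD 9.22) and the CYP3A4 match 27.3 TPM (SD 6.19), a difference well within their spread, while cyp2b19 was lower, at 9.36 TPM (SD 1.70). By mean intestinal TPM they ranked 1800, 1857 and 3959 among the 13136 transcripts. The highest cyp2b19 library, lateral intestine of animal 4 with 11.4 TPM, stood below the lowest cyp2a6 intestine library, 19.5 TPM, and the lowest for the CYP3A4 match, 16.1 TPM. Reads of these libraries come from 3′ ends and do not grow in number with length, so dividing by length lowers the TPM of cyp2b19, the longest of the 3. Before that division the order was the CYP3A4 match, cyp2a6 and cyp2b19, with 84.6, 65.8 and 34.7 CPM on average in intestine.

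Outside the intestine the levels in TPM were closer together. The CYP3A4 match had 6.89 TPM (SD 2.31, n = 4), cyp2a6 4.11 (SD 1.64) and cyp2b19 3.96 (SD 1.56), at ranks 7044, 8765 and 8882. In TPM the neighbours cyp2a6 and cyp2b19 did not differ beyond their spread. Before the division by length the CYP3A4 match averaged 10.0 CPM, cyp2b19 6.90 and cyp2a6 4.49. Reads of cyp2b19 there outnumbered those of cyp2a6 in every library. By TPM, the CYP3A4 match stood first and cyp2b19 last in 6 of the 12 libraries, 4 of them intestinal. In the other 4 intestinal libraries cyp2a6 stood first and cyp2b19 last by TPM. In the remaining 2 libraries, both non-intestine, cyp2a6 had the lowest TPM.

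Because all 3 are read from the same library, the ratio of one to another does not depend on how libraries are scaled. The log2 ratio of cyp2b19 to cyp2a6 read counts averaged -0.82 (SD 0.09, n = 4) in medial and -0.96 (SD 0.50) in lateral intestine and 0.63 (SD 0.15) outside it. Reads of cyp2a6 thus outnumbered those of cyp2b19 in all 8 intestine libraries, and the reverse held in all 4 non-intestine libraries. The difference was -1.45 between medial and non-intestine tissue and -1.60 between lateral and non-intestine tissue, each seen in 4 of 4 animals with no overlap of groups (exact unpaired permutation test, two-sided p = 0.029, adjusted p = 0.064 over 9 comparisons). This test did not pair libraries by animal.

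The ratio of cyp2b19 to the CYP3A4 match had smaller differences of the same sign. It averaged -1.29 in medial intestine, -1.24 in lateral intestine and -0.55 outside it, a difference of -0.74 for medial (exact p = 0.029, adjusted p = 0.064, groups apart) and -0.69 for lateral intestine (exact p = 0.057, adjusted p = 0.086, groups overlapping). The ratio of cyp2a6 to the CYP3A4 match averaged -0.48, -0.28 and -1.18, a difference of 0.71 for medial (exact p = 0.029, adjusted p = 0.064) and of 0.91 for lateral intestine (exact p = 0.057, adjusted p = 0.086), the latter in 3 of 4 animals. Between medial and lateral intestine the 3 ratios differed by 0.15, -0.05 and -0.20 (exact p = 0.60, 0.86 and 0.63). With 4 libraries a tissue the smallest two-sided p is 0.0286, and none of the 9 reached an adjusted 0.05. Comparisons at that floor, with groups fully apart, still had an adjusted p of 0.064. The test therefore cannot decide whether the folds of the 3 transcripts are unequal, and they are not established as such.

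**Figure D2:**
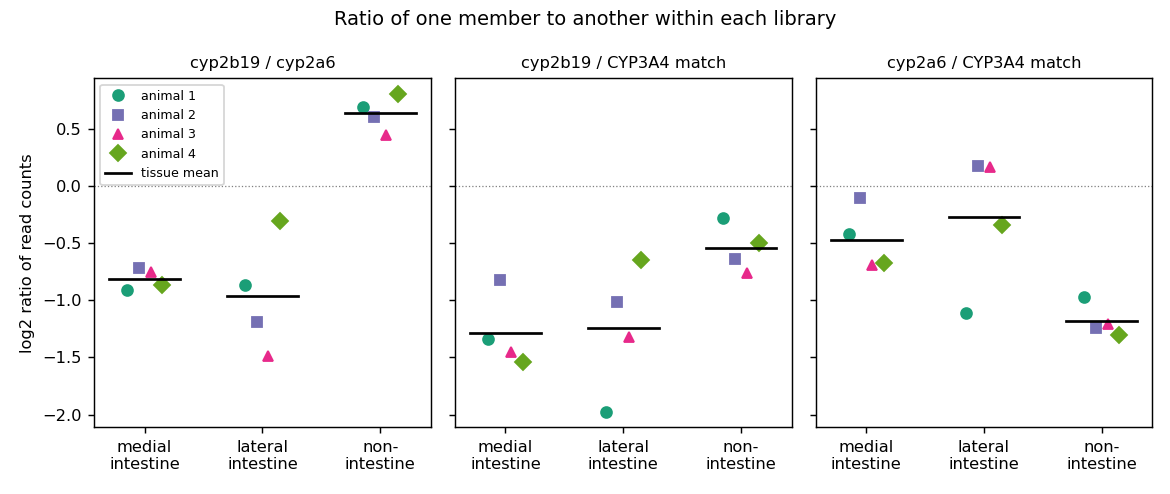
Log2 ratio of read counts of one P450 transcript to another within each library, by tissue, with 1 symbol per animal and black bars for tissue means (n = 4). The ratio of cyp2b19 to cyp2a6 lies below 0 in all 8 intestine libraries (means -0.82 and -0.96) and above 0 in all 4 non-intestine libraries (mean 0.63), while the other 2 ratios overlap between lateral intestine and non-intestine tissue.

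A further 10 P450 matches were taken from the study's enriched tables and share with the 3 that they were picked on these libraries. The annotation was used in part, so P450s may be missing from these lists and from the totals over them. All 10 were called higher in medial and in lateral intestine, all 10 had every intestine library above every non-intestine library, and none was called between medial and lateral intestine. Their median log2 fold change was 3.89 in medial and 3.84 in lateral intestine, against -0.28 and -0.19 over all transcripts, and 3.13 and 3.00 for the 3 above. The members of the CYP2 family among them were matches to CYP2A13, CYP2J2, CYP2U1, CYP2F1 and CYP2C18. In humans CYP2J2 and CYP2U1 oxidise long-chain fatty acids, and CYP2A13 and CYP2F1 are known from the airways.

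The CYP2A13 match (dd_2083) gave log2 fold changes of 3.07 (SE 0.40) and 3.24 (SE 0.41) in medial and lateral intestine, the CYP2J2 match (dd_2394) 3.50 and 3.45 (SE 0.38 each), and the CYP2U1 match (dd_2871) 3.44 and 3.47 (SE 0.43 each). These 3 lay between cyp2b19 and cyp2a6. The CYP2F1 match (dd_5344) was nearly silent outside the intestine, with 0.573 to 2.90 CPM against 51.6 to 96.7 inside it, a 42.0-fold and 39.2-fold difference. The CYP2C18 match (dd_14927) had 9.94 to 23.2 CPM in medial and 2.87 to 26.9 in lateral intestine but 9 reads in all 4 non-intestine libraries together, so its fitted log2 values of 7.72 and 7.31 depend on the prior count of the fit. Of the 13, the 2 with the fewest reads outside the intestine were this one and the match to CYP20A1 (dd_16749), an orphan P450 in humans, with 53 non-intestine reads and log2 fold changes of 5.16 (SE 0.82) and 4.32 (SE 0.80). The lateral call of the latter was lost without animal 3 (adjusted p = 0.011) or without animal 4 (adjusted p = 0.017).

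The CYP46A1 match (dd_7676), in humans the enzyme that clears cholesterol from the brain, was 53.6-fold higher in medial and 51.4-fold higher in lateral intestine, with 27.1 to 83.3 CPM in intestine and 0.067 to 1.73 outside it. Of the CYP3 family, a second CYP3A4 match (dd_3106) had 68.4 to 137 CPM in medial, 82.6 to 120 in lateral intestine and 4.80 to 6.47 outside, a 17.9-fold and 18.5-fold difference, beside 8.77-fold and 8.01-fold for the CYP3A4 match above. The CYP3A43/CYP3A4 match (dd_5902) gave 3.63 and 3.33 on the log2 scale (SE 0.34 and 0.33). The CYP3A5 match (dd_4319) was the exception, with 77.3 to 103 CPM in intestine and still 30.6 to 35.7 CPM outside it. Its folds of 2.79 and 2.55 (SE of the log2 value 0.15 each) were the smallest of the 13, and under total library scaling they were below 2 and no longer called, at log2 0.77 (adjusted p = 0.0093) and 0.69 (adjusted p = 0.017). How similar these P450 transcripts are in sequence was not examined. Reads of similar transcripts may be shared in the authors' counting, so the values of single paralogs are uncertain to that extent.

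**Figure D3:**
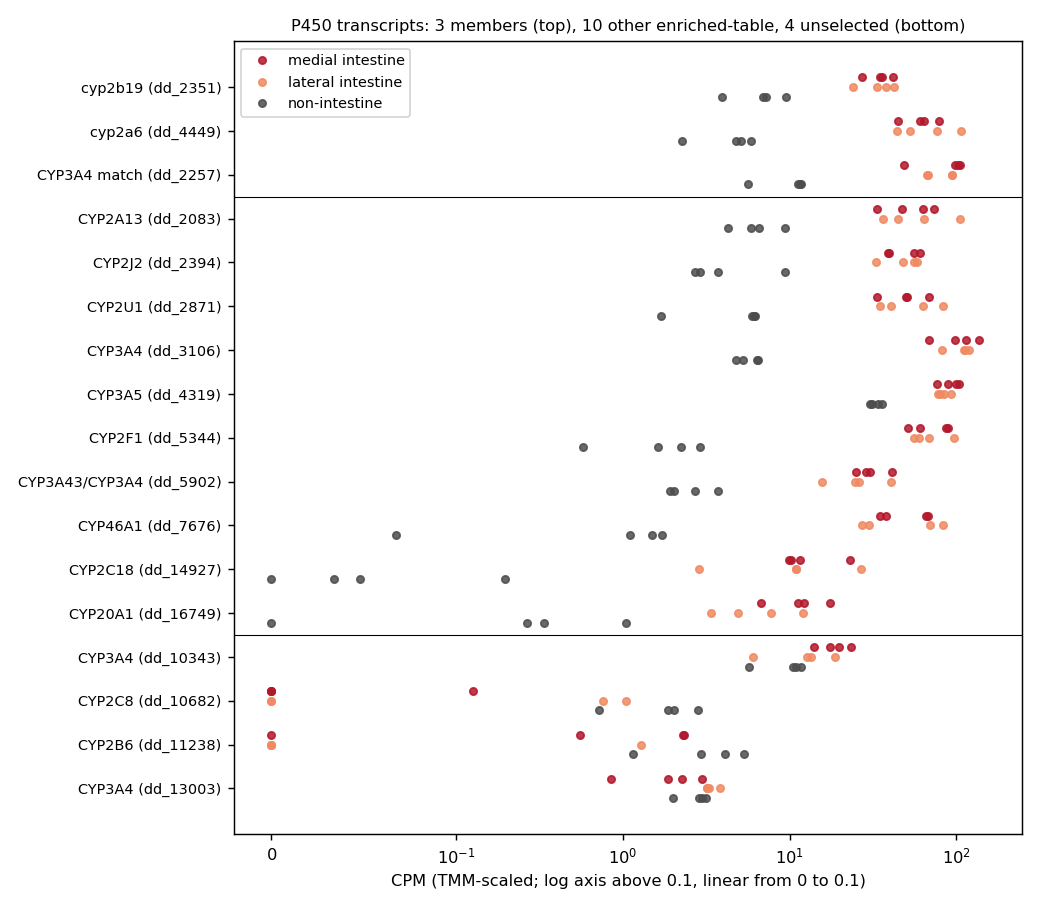
CPM (TMM-scaled, logarithmic above 0.1 and linear from 0 to 0.1) of 17 P450 matches, 1 row each, with 4 points per tissue for the 4 animals. The 13 in the upper rows have all intestine points to the right of all non-intestine points, with the CYP3A5 match closest (77.3 to 103 against 30.6 to 35.7 CPM), and the 4 in the lowest rows do not. The 13 are in the enriched tables made from these libraries and the 4 are not, so this contrast follows largely from how they were picked.

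A further 4 P450 matches were taken from annotation that covers transcripts without regard to enrichment, and none of the 4 was called in any comparison by edgeR's quasi-likelihood test. None of the 4 is in the enriched tables, while the P450 matches that are stand in the lists above. The absence of higher calls among the 4 thus follows largely from how the lists were divided. Over all transcripts 9.49% were called lower in medial and 7.58% in lateral intestine, and in 20.2% every intestine library lay below every non-intestine library, as in 0 of these 4. Apart from dd_10343 their counts were low, and 2 of them had their reads mostly outside the intestine. At an unadjusted p under 0.05 the same test gave 2 of the 4 in medial intestine, of opposite sign, and 1 in lateral intestine, against 45.8% and 41% of all transcripts, and DESeq2 called 1 in each.

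The CYP2C8 match (dd_10682) had 2 reads in medial intestine against 246 outside, a ratio of 75.2 with a 95% counting interval of 20.6 to 624 (adjusted p = 0.081), and 0 to 1.05 CPM in lateral intestine. The CYP2B6 match (dd_11238) had 0 to 2.34 CPM in medial intestine, reads in 1 of 4 lateral libraries and 1.15 to 5.35 CPM outside the intestine (log2 -1.52 and -5.57, adjusted p = 0.61 and 0.12). DESeq2 called the former lower in medial (adjusted p = 0.0061) and the latter lower in lateral intestine (adjusted p = 0.0011). In each of these low transcripts, some intestine libraries had reads and others had none.

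Of the other 2, both CYP3A4 matches, dd_10343 was the most abundant, with 14.1 to 23.3 CPM in medial, 6.07 to 18.7 in lateral intestine and 5.73 to 11.7 outside. Its log2 fold changes of 1.02 (adjusted p = 0.041) and 0.36 (adjusted p = 0.48) missed the threshold, and the lateral value turned to -0.31 under total library scaling. The other, dd_13003, gave -0.52 (adjusted p = 0.59) and 0.30 (adjusted p = 0.79), with the lateral value at -0.32 under total scaling. The median of the 4 was -1.02 in medial and -1.20 in lateral intestine.

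Summed over these 17 P450 matches, the deposited TPM was 280 ± 42.6 for medial and 294 ± 60.1 for lateral intestine, and 81.7 ± 19.1 for non-intestine tissue (SD, n = 4). TPM has the same total in every library and is not TMM-scaled, so these sums do not give the folds under TMM. In TMM-scaled CPM the first 3 summed to 185, 185 and 21.4 on average, in the same order of tissues. The 10 further matches of the enriched tables summed to 531, 528 and 60.9 CPM. The CPM sums of the 4 uncalled matches overlapped between intestine and non-intestine libraries. The first 3 made up 22.3% ± 2.95 of the summed TPM in medial intestine, 23.1% ± 2.55 in lateral intestine and 17.8% ± 2.99 outside. The ranges of this share were 18.0% to 24.3%, 19.7% to 26.0% and 13.6% to 20.2%. Some shares stood apart between intestine and non-intestine libraries and others overlapped, and these differences were not tested. Outside the intestine the CYP3A5 match alone held 33.3% ± 6.27, against 12.4% ± 1.36 in medial and 11.7% ± 2.94 in lateral intestine, and the 4 uncalled matches together held 20.5% ± 1.68, against 3.45% ± 0.77 and 2.69% ± 0.73. In the intestine the largest share was that of the second CYP3A4 match, dd_3106, at 13.9% ± 3.61 and 14.9% ± 4.39, against 5.76% ± 1.14 outside.

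Most P450s work with partner proteins. Over all transcripts 12.1% were called higher in medial and 11.3% in lateral intestine. Of 4 matches to P450 partners, electron donors and the haem-binding protein PGRMC1, 3 were called higher in both intestinal tissues. The called ones were POR, CYB5A and PGRMC1. These 3 are in the enriched tables made from these libraries, as is every transcript called higher among the haem enzymes, receptors, conjugating enzymes and efflux pumps below, so these counts are not independent evidence. Cytochrome P450 reductase, POR (dd_542), which passes electrons from NADPH to the P450s, had 470 to 605 CPM in medial, 423 to 592 in lateral intestine and 119 to 137 outside it. That is a log2 fold change of 2.07 and 1.97 (SE 0.14 each). Cytochrome b5, CYB5A (dd_567), which can supply an electron to some P450s, was higher by 2.51 and 2.46 (SE 0.16 each), with 385 to 474, 357 to 484 and 57.0 to 88.2 CPM.

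PGRMC1 (dd_2076), a haem-binding protein that associates with P450s, lay just past the fold threshold at 1.08 and 1.02 (SE 0.21 each), with groups apart (51.5 to 90.3 CPM in intestine and 27.8 to 34.4 outside). Its medial call was lost in 6 of 16 analyses that left out an animal or a library and in 5 of 9 others, and its lateral call in 8 of 16 and 5 of 9. The reductase of cytochrome b5, CYB5R3 (dd_1468), did not pass the test, at -0.21 (adjusted p = 0.47) and -0.23 (adjusted p = 0.45), with 73.9 to 157 CPM in intestine and 113 to 154 outside. None of the 4 was called between medial and lateral intestine.

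The haem group of P450s is made in the cell, and of 2 matches to enzymes of its synthesis 1 was called higher in both intestinal tissues. Coproporphyrinogen oxidase, CPOX (dd_2002), was higher by 1.86 and 1.94 on the log2 scale (SE 0.17 each), with 95.2 to 105 CPM in medial, 93.6 to 125 in lateral intestine and 23.6 to 32.7 outside. ALAS2 (dd_1226), the match to the enzyme of the first and rate-limiting step, was not higher in either. It had 8.08 to 16.98 CPM in medial intestine, 12.8 to 25.4 in lateral intestine and 24.7 to 37.6 outside, and was called lower in medial (log2 -1.28, SE 0.30, adjusted p = 0.0069) but not in lateral intestine (-0.75, SE 0.30, adjusted p = 0.079). The medial call was lost in 12 of 16 analyses that left out an animal or a library and in 2 of 9 others, and the difference between the 2 regions was not called.

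Vertebrate P450 genes are induced through nuclear receptors and the aryl hydrocarbon receptor, and 3 such matches were listed. The match to NR1I3 (dd_11714), in mammals the receptor CAR that induces CYP2B and CYP3A genes, was 8.94-fold higher in both medial and lateral intestine (log2 3.16, SE 0.27, in each), with 21.1 to 33.2 CPM in intestine and 2.19 to 4.34 outside. AHR (dd_17534), the aryl hydrocarbon receptor, which in mammals induces CYP1 genes, had 0 reads in medial intestine and 310 outside it, at least 63.2-fold lower against a floor of 3 reads over the group (adjusted p = 0.018). It was called lower in medial intestine in 3 of 9 other analyses, and all 55 of its lateral reads came from animal 4. RXRB (dd_12699), the partner of NR1I3-type receptors, had 22 reads outside the intestine, 7 in lateral and 0 in medial intestine, and was below the filter.

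**Figure D4:**
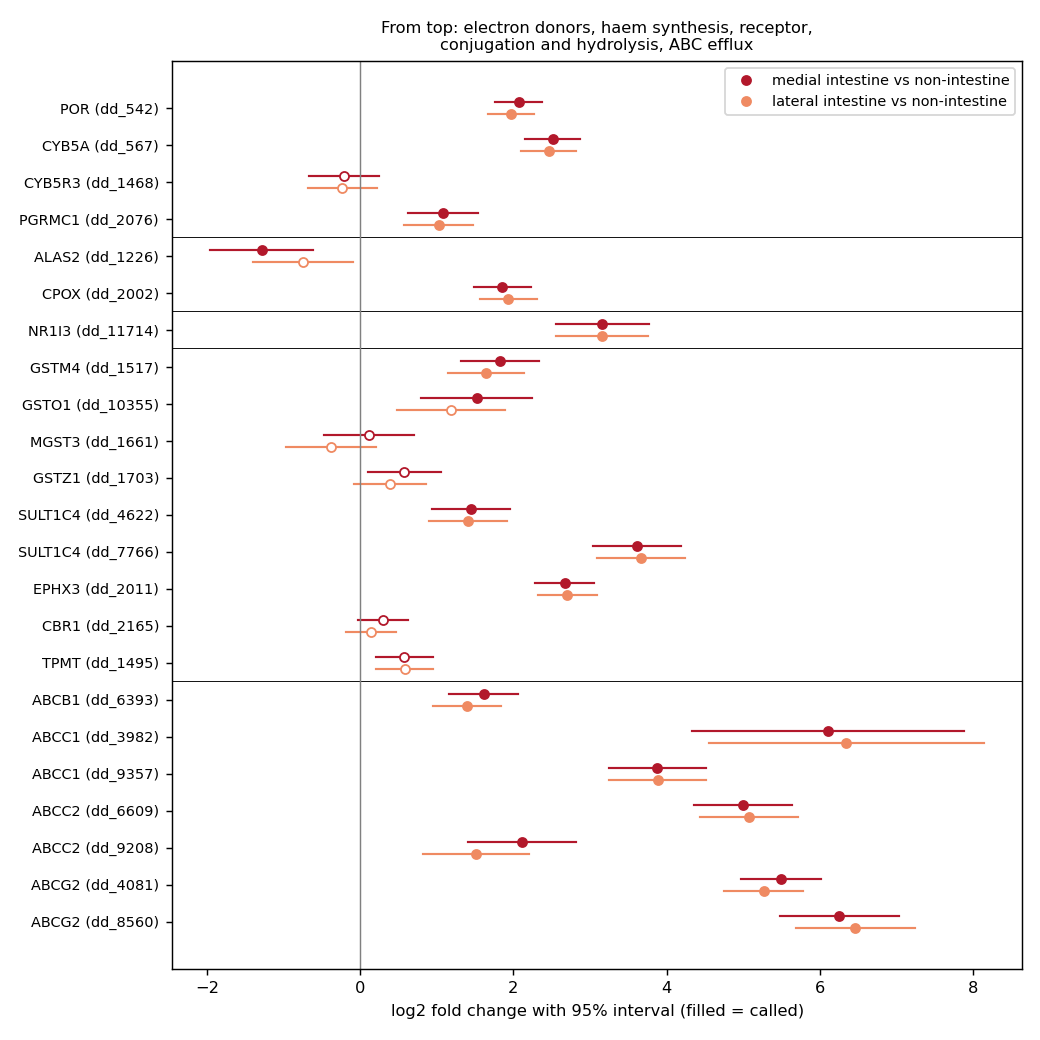
Log2 fold change against non-intestine tissue with 95% intervals, in medial (dark) and lateral (light) intestine, with filled symbols for called transcripts. The matches are to electron donors with PGRMC1, haem synthesis enzymes, a receptor, conjugating and hydrolysing enzymes and ABC efflux pumps. POR lies at 2.07 and 1.97 and the efflux pumps between 1.39 and 6.46, while CYB5R3, MGST3 and CBR1 straddle 0 and ALAS2 lies below it.

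Among 10 matches to enzymes of conjugation and hydrolysis, which act on the products of P450s, 9 were tested, 5 were called higher in medial and 4 in lateral intestine, and none was called lower. Over all transcripts 12.1% and 11.3% were called higher and 9.49% and 7.58% lower, and 5 of the 10 had been taken from the enriched tables. The median log2 fold change was 1.44 in medial and 1.19 in lateral intestine, against -0.28 and -0.19 over all transcripts. The largest differences in both were those of a sulfotransferase match, SULT1C4 (dd_7766), at 3.62 and 3.67 (SE 0.26 each), of the epoxide hydrolase match EPHX3 (dd_2011), at 2.67 and 2.70 (SE 0.17 each), and of the glutathione transferase match GSTM4 (dd_1517), at 1.83 and 1.64 (SE 0.23 each). The lateral call of GSTM4 was lost under total library scaling (log2 0.98, adjusted p = 0.019). GSTO1 (dd_10355) was called in medial (1.52, adjusted p = 0.0039) but not in lateral intestine (1.19, adjusted p = 0.016), and its medial call was lost in 9 of 16 analyses that left out an animal or a library and in 3 of 9 others.

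A further 4 matches were called in neither tissue. The microsomal glutathione transferase MGST3 (dd_1661) gave 0.11 and -0.38 on the log2 scale, with 62.3 to 204 CPM outside the intestine. The glutathione transferase GSTZ1 (dd_1703) gave 0.58 and 0.39, with 13.2 to 22.6 CPM outside the intestine. The carbonyl reductase CBR1 (dd_2165) gave 0.30 and 0.15, and the thiopurine methyltransferase TPMT (dd_1495) 0.58 and 0.58 (adjusted p = 0.020 and 0.021). Under total library scaling each of these positive values was negative, from -0.07 to -0.62. The sulfotransferase match SULT1C3 (dd_15647) was below the filter, with 0 to 2.58 CPM.

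ABC transporters pump conjugates and foreign compounds out of cells. All 7 matches were called higher in medial and in lateral intestine, against 12.1% and 11.3% of all transcripts, but all 7 were taken from the enriched tables, so the count is not independent of how they were picked. Their median log2 fold changes were 5.00 and 5.07, against -0.28 and -0.19 over all transcripts. Largest were ABCG2 (dd_8560) at 6.26 and 6.46 (SE 0.35 each), ABCC1 (dd_3982) at 6.11 and 6.35 (SE 0.81 each) and a second ABCG2 match (dd_4081) at 5.49 and 5.27 (SE 0.24 and 0.23). The first of these had 33.6 to 66.2 CPM in intestine and 0.20 to 0.88 outside, the second 35.1 to 85.6 and 0 to 2.07, and the third 98.5 to 151 and 2.15 to 3.72. The smallest were ABCB1 (dd_6393), at 1.61 and 1.39, and an ABCC2 match (dd_9208), at 2.11 and 1.51, both named after their values were seen. The lateral call of ABCC2 was lost in 10 of 16 analyses that left out an animal or a library, and both transcripts lost both calls under total library scaling (log2 0.73 to 1.39, adjusted p = 0.010 to 0.090).

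Over the 12 libraries, the transcripts whose log2(CPM + 1) followed a P450 most closely were sought by Pearson correlation, as a description. The value is dominated by the contrast between intestine and non-intestine tissue, which the points share, so it was also computed over the 8 intestine libraries alone. For cyp2b19 the closest were a match to the carbonyl reductase CBR4 (dd_7587, r = 0.985, and 0.698 within intestine), the unnamed dd_5458 (0.983 and 0.636), cyp2a6 (0.982 and 0.611), the phosphatase subunit match PPP6C (dd_581, 0.982 and 0.630) and the sodium pump subunit match ATP1B2 (dd_2230, 0.981 and 0.735). None of the 5 stayed above 0.735 within intestine.

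For cyp2a6 the closest were dd_14 (0.993 and 0.956), CBR4 (dd_7587, 0.992 and 0.798), the match to D-aspartate oxidase DDO (dd_3560, 0.992 and 0.936), dd_1347 (0.992 and 0.892) and dd_5458 (0.991 and 0.767). The CYP3A4 match was followed most closely by the match to adenosine deaminase ADA (dd_3903, 0.991 and 0.959), dd_862 (0.989 and 0.755), dd_245 (0.989 and 0.940), the dipeptidyl peptidase match DPP7 (dd_1123, 0.989 and 0.876) and the actin regulator match EVL (dd_1714, 0.988 and 0.884). The 3 P450s followed each other less closely within intestine than over all libraries. The correlation was 0.982 over 12 and 0.611 over 8 libraries for cyp2b19 with cyp2a6, 0.966 and 0.273 for cyp2b19 with the CYP3A4 match, and 0.976 and 0.425 for cyp2a6 with the CYP3A4 match.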

How the data were processed

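RNA of laser-captured tissue was sequenced from poly(A) tails (QuantSeq 3′ libraries, 5 ng of RNA each, sections of 20 µm), and the authors trimmed reads with BBDuk, mapped them with Bowtie2 2.3.1 at default settings to 28069 transcripts and counted them with SAMtools 1.3. The deposited counts are raw reads per transcript, without molecular identifiers, so intervals on counts cover counting error only. The deposited CPM values are a signal that the authors scaled to TMM-adjusted library sizes, the deposited RPKM is scaled by length and library size and was not used for any result, and the deposited TPM is scaled by length to the same total in every library. CPM, RPKM and TPM recomputed from the counts matched the deposited values. The authors' own comparison columns (log fold changes, p-values and false discovery rates from edgeR 3.8.6) were not used.

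Transcripts with a CPM of at least 1 in at least 4 of 12 libraries were kept (13136). Counts were fitted with edgeR 4.0.16 (R 4.3.3, limma 3.58.1) by quasi-likelihood with tissue and animal as terms over all 12 libraries, TMM scaling and Benjamini-Hochberg adjustment over all transcripts. A call needed an adjusted p under 0.01 and a fold above 2, or above 1.5 between medial and lateral intestine. Standard errors were taken from the F statistic and are approximate. The fit was tested on simulated counts with known fold changes. Ratios within a library had 0.5 reads added to each count and were compared by exact two-sided permutation tests without pairing by animal (SciPy 1.17.1), and likeness used log2(CPM + 1). Where a group had 0 reads, the bound on the fold rests on 3 reads over the group.

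Animal was the block because the study drew its tissue from 4 individual planarians and the sample titles number each tissue 1 to 4. The deviations of same-numbered libraries from their tissue means correlated weakly, at 0.048 to 0.111 for medial with lateral intestine, -0.010 to 0.097 for medial intestine with non-intestine tissue and 0.068 to 0.159 for lateral intestine with non-intestine tissue. Libraries of different number gave -0.187 to 0.152, -0.156 to 0.086 and -0.142 to 0.107 in the same order. These values overlap, so that a number marks the same animal in all tissues is inferred and not shown by the data. Alternatives were no block, DESeq2 1.42.0, DESeq2 size factors, total library size, 2 other filters, the likelihood ratio test, only the tissues compared, a test against the fold threshold, and leaving out each animal and each library.

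The 3 transcripts and the lists around them were chosen with earlier results of these data known. Named were the 3, the other P450 matches, the donors, PGRMC1, the haem enzymes and the receptors. Also named were the 3 largest differences and the uncalled members of the conjugation and efflux lists, and the 5 closest transcripts by correlation. Some matches are not reported here. The gene matches come from the study's annotation, used in part, so the lists may miss members.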

Additional observations from a re-analysis of the deposited data

Results flagged for a closer look

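In 14 of 122 groups of 4 libraries, 1 library stood apart from the other 3 by more than Dixon's 95% critical value, which chance alone gives in about 1 of 20 groups of independent, normally distributed values. The groups here share libraries, and where the other 3 were at 0 any read was flagged. The 14 are therefore not to be read against that rate. For the CYP3A4 match these were medial intestine of animal 2, at 48.4 CPM against 97.8 to 105.5 in the others, and non-intestine tissue of animal 4, at 5.59 CPM against 11.2 to 11.8. Among the other P450 matches, CYP2J2 had 9.45 CPM in non-intestine tissue of animal 2 against 2.70 to 3.71, CYP2U1 1.69 CPM in non-intestine tissue of animal 4 against 5.93 to 6.25, and CYP2C18 23.2 CPM in medial intestine of animal 1 against 9.94 to 11.6. The CYP2C8 match had 0.127 CPM in medial intestine of animal 3 and CYP2B6 1.28 CPM in lateral intestine of animal 1, each against 0 in the others, and the CYP3A4 match dd_13003 had 3.81 CPM in lateral intestine of animal 2 against 3.19 to 3.29.

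Non-intestine tissue of animal 4 also stood apart for CYB5R3, at 154 CPM against 113 to 119, and for GSTZ1, at 13.2 CPM against 21.5 to 22.6. PGRMC1 had 86.8 CPM in lateral intestine of animal 3 against 56.7 to 60.6, EPHX3 91.8 CPM in lateral intestine of animal 1 against 119 to 125, ABCB1 40.5 CPM in medial intestine of animal 2 against 24.8 to 26.4, and AHR 2.32 CPM in lateral intestine of animal 4 against 0.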

How the results depend on the processing

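The 6 calls of cyp2b19, cyp2a6 and the CYP3A4 match against non-intestine tissue held in all 25 alternatives each, with log2 fold changes of 1.62 to 2.63, 3.13 to 4.26 and 2.34 to 3.41, and the highest adjusted p was 0.0040. Between medial and lateral intestine none was called in any alternative. Without the animal block (no pairing), the difference of cyp2b19 was 0.018, and with only the 2 tissues compared 0.024, both opposite in sign to -0.01. The fit without the block changed no call of the named transcripts. Leaving out 1 animal or library, the medial to lateral log2 difference was -0.26 to 0.24 for cyp2b19, -0.41 to 0.11 for cyp2a6 and -0.16 to 0.36 for the CYP3A4 match, and the differences of their ratios were -0.046 to 0.38 (cyp2b19 to cyp2a6), -0.28 to 0.23 (cyp2b19 to CYP3A4 match) and -0.49 to 0.022 (cyp2a6 to CYP3A4 match).

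The number of all transcripts called in medial intestine was 2838, and 4268 with DESeq2, 1798 against the fold threshold and 1868 to 2842 leaving out a replicate (1868 without animal 1). In lateral intestine it was 2474, and 1491 against the fold threshold and 1611 to 2665 leaving out a replicate (1611 without animal 3). Between the regions it was 33, and 227 with DESeq2, 184 with the likelihood ratio test, 114 without the filter and 4 to 36 leaving out a replicate (4 without animal 2). Of the 4 P450 matches outside the enriched tables, of which 0 were called, DESeq2 called 1 in medial and 1 in lateral intestine. Of the 2 haem enzymes, both called in medial intestine, 1 was called with only the 2 tissues compared and against the fold threshold, and 1 to 2 leaving out a replicate, and in lateral intestine total scaling called 2 in place of 1. Of the conjugation list 3 were called in medial and 2 in lateral intestine both under total scaling and against the fold threshold. Of the receptors 2 were called in medial intestine with DESeq2, with the likelihood ratio test and without the filter, and DESeq2 called 2 in lateral intestine and 1 between the regions.

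Under total scaling the log2 values were -0.31 for dd_10343 and -0.32 for dd_13003 in lateral intestine, -0.62 for MGST3 in medial intestine, -0.13 and -0.27 for GSTZ1, -0.41 and -0.52 for CBR1, and -0.13 and -0.074 for TPMT. With DESeq2 or its size factors MGST3 was -0.064 and -0.065 in medial and CBR1 -0.024 in lateral intestine. Leaving out a replicate gave -0.078 to 0.45 for dd_13003 in lateral intestine, -0.27 to 0.33 for MGST3 in medial intestine and -0.044 to 0.20 for CBR1 in lateral intestine. The causes were not tested. Among transcripts of a few CPM, the calls of CYP2C8, CYP2B6 and AHR differed between edgeR and DESeq2.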
